A study of Mus musculus with 6 samples.

Results

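The canonical ribosomal protein genes encode the proteins of the cytosolic ribosome. They were taken here as the probe sets annotated to a single gene whose symbol is Rpl or Rps followed by digits and at most 1 trailing a, x or y, together with Rplp0, Rplp1, Rplp2 and Rpsa, and without Rpl3, Rpl10, Rpl22 and Rpl39. The rule found 90 of the 45037 probe sets of the table, from 40 genes, 20 of the large and 20 of the small subunit. Another 105 probe sets that name such a gene together with a pseudogene or another gene were left out by the rule, which removed Rplp1 and Rpl5 among others. A filter on dim signals kept 84 of the 90 probe sets and 39 of the 40 genes. Rps16 was left without a tested probe set, because its single probe set read between 0 and 3.24 on the log2 scale. Of the 84 tested probe sets, 37 carry the suffix _x_at, given to probe sets with probes that may also match other sequences. Annotation to a single gene thus does not make a signal specific to that gene.

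The study compared 3 wild type and 3 Setd2 knockout cultures of mouse embryonic stem cells (mESCs), all of the strain background 129SV/C57BL/6 and untreated, each on 1 Affymetrix mouse expression array. Setd2 encodes the enzyme that places the third methyl group on lysine 36 of histone H3 along transcribed genes, and the stated aim was to find genes needed for the differentiation of primitive endoderm. Cells of both genotypes grew on feeder cells, went through 1 passage on gelatin to deplete these, and were collected 2 days later. The labels give neither the deleted part of Setd2 nor the number of knockout lines, and call the 3 cultures of a genotype biological repeats. The arrays are called WT1 to WT3 and KO1 to KO3 after the genotype and replicate number in the titles. Values are log2 MAS5 signals (MAS5 is the Affymetrix method that reduces the probes of a probe set to 1 signal), and a difference is knockout minus wild type. The signal of one probe set is not comparable with that of another, and in a bulk sample fewer cells of a type and less RNA per cell cannot be told apart.

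Ribosomal proteins are needed in near equal amounts, since a ribosome holds nearly all of them as single copies. Their mRNAs are among the most abundant of a dividing cell, and most begin with a pyrimidine tract through which the growth kinase mTOR controls their translation. Loss of one copy of several of these genes causes Diamond-Blackfan anaemia, and free ribosomal proteins such as Rpl11 bind Mdm2 and thereby stabilise p53.

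The Setd2 probe set (1428555_at) read 10.31, 10.30 and 10.31 in wild type and 9.37, 9.50 and 9.60 in knockout cells, without overlap, and fell by 0.82 on the log2 scale (limma adjusted p = 0.0272). Its adjusted p rose above the threshold when WT1, WT2, WT3, KO2 or KO3 was left out, with the difference between -0.87 and -0.81. Of the 10 stem cell markers checked, 9 had a mean above 12 in wild type cells, and Esrrb had a mean of 10.84. Between genotypes 1 of the 10, Zfp42 on chromosome 8, fell by 1.99 (limma adjusted p = 8.37e-05), and their median difference was 0.00. The 8 tested markers of primitive endoderm had a median difference of -1.10. All knockout arrays lay below all wild type arrays for 7 of them, against 9.97% of all genes. In limma 2 fell, Gata6 with a difference of -1.63 (adjusted p = 0.0372) and Col4a1, also on chromosome 8, with one of -1.02 (0.0457). Of all genes 0.736% passed in either direction. With the replicate number as a block 6 of the 8 fell in limma, where 9.87% of all genes passed in either direction. The part of these markers in the results on ribosomal protein genes was not tested. Of 12 feeder fibroblast markers 11 were tested, and their mean level per array ran from 8.53 to 9.81 in wild type and from 8.27 to 9.67 in knockout cells, lowest on WT1 and KO1. The 709 tested genes of chromosome 8 had a median difference of -0.34, and the 4 tested Y-linked genes had one of 4.77, so genotype and cell line cannot be told apart. None of the 90 ribosomal protein probe sets belongs to a gene on chromosome 8 or Y.

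No ribosomal protein gene passed the threshold between genotypes. Genes were read at their brightest tested probe set, and 0 of 39 had a limma adjusted p under 0.05, where 0.736% of all 12915 genes did. At an unadjusted p under 0.05 there were 4 genes, all lower in knockout cells, against 7.29% of all genes lower and 13.4% in either direction. Over the 84 tested probe sets the count was also 0 (0.648% of all 27022 probe sets), with 6 lower at an unadjusted p under 0.05 (5.93% of all were lower, and 11.7% passed in either direction). With the replicate number as a block, 2 of the 84 probe sets passed in limma, against 7.88% of all probe sets. Of these 1 was higher (Rpl37; 3.49% of all probe sets were) and 1 lower (a probe set of Rps15; 4.39% were). By gene the block gave 1 of 39, the higher one, against 9.87% of all genes in either direction and 4.13% higher.

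The differences were small and narrowly bounded. The median over the 39 genes was -0.06, against -0.00 over all genes, and 29 of the 39 differed by less than 0.1 in either direction. The median SD over the arrays of a genotype was 0.03 in wild type and 0.09 in knockout cells, against 0.19 and 0.23 over all genes. For 31 of the 39 genes (79.5%) the 95% interval of the difference lay wholly within 0.32 of 0 on the log2 scale, which held for 9.35% of all genes. Narrow intervals were shared by other bright probe sets: at a mean of 14 or more they held for 178 of 208 probe sets that name no ribosomal protein gene (85.6%) and for 59 of 62 of the ribosomal protein probe sets (95.2%). The median SDs of those 208 were 0.05 and 0.08. For the remaining 8 genes a difference of that size lay inside the interval.

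**Figure D1:**
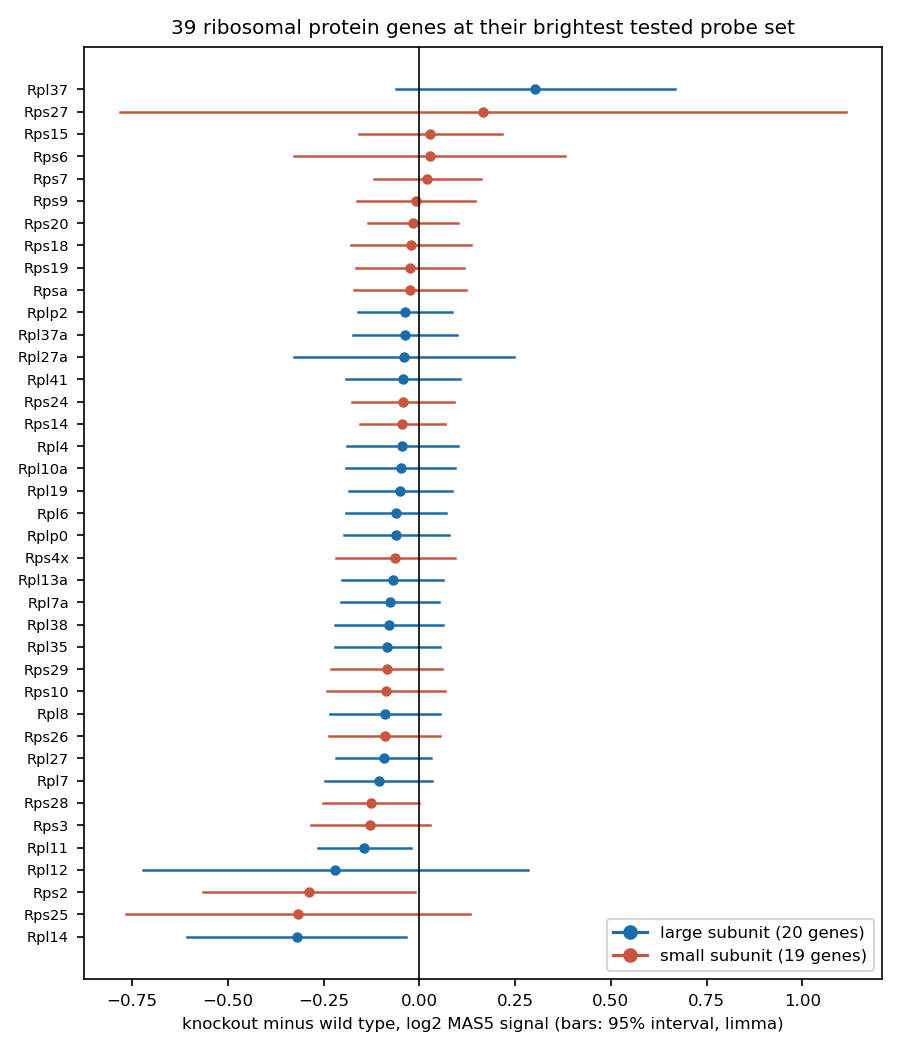
Difference between knockout and wild type in log2 MAS5 signal (x axis) for the 39 tested ribosomal protein genes (y axis), each at its brightest tested probe set; bars are 95% intervals from limma, blue for the large and red for the small subunit. Most points lie slightly left of 0 with intervals that include 0, and Rpl37 at the top and Rpl14, Rps25 and Rps2 at the bottom lie furthest out.

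Of the 39 genes, 34 lay below 0 (87.2%), where 50.1% of all genes did. In 7 of the 39 (17.9%) all 3 knockout arrays lay below all 3 wild type arrays, against 9.97% of all genes, and in 0 of the 39 did they all lie above, against 9.26%. Over probe sets, 13 of 84 lay below without overlap (8.99% of all) and 0 above (9.16%). The median level over the 39 genes was 14.73, 14.75 and 14.69 on WT1 to WT3 and 14.73, 14.55 and 14.69 on KO1 to KO3. KO2 was the lowest of the 6 arrays for 27 of the 39 genes. Without KO2 the median difference was -0.02, with 27 of 39 genes below 0. Within the replicate numbers the median difference was -0.02 for number 1, -0.14 for number 2 and -0.05 for number 3. The direction depended on the scaling: after quantile normalization the median was 0.00 with 19 of the 39 genes below 0. Centring on array medians gave -0.10 with 37 below 0. Quantile normalization gives every array the same set of values, and 60 to 62 of the 339 to 367 probe sets above 14 per array were members. It would remove part of a shift shared by the members, so it cannot decide the direction.

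The same array was low at other bright probe sets. A mean signal of 14 or more, a level chosen after the values were seen, was reached by 62 of the 84 ribosomal protein probe sets and by 208 tested probe sets that name no ribosomal protein gene. KO2 was the lowest array for 49 of the 62 (79.0%) and for 104 of the 208 others. The median difference was -0.06 over the 62 and -0.04 over the others, with 88.7% and 71.6% below 0. These probe sets lie close to the top of the table, whose highest value was between 15.20 and 15.35 on each array. Whether signals this high still follow the mRNA amount in proportion was not tested.

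**Figure D2:**
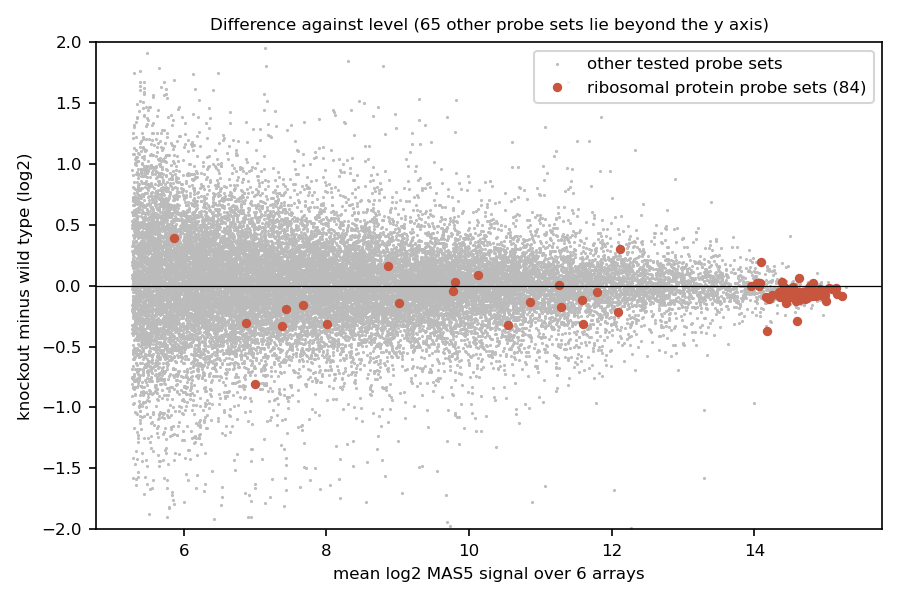
Difference between knockout and wild type (y axis, log2) against the mean log2 MAS5 signal over the 6 arrays (x axis) for the 84 tested ribosomal protein probe sets (red) and the other tested probe sets (grey); the y axis ends at 2 in both directions, and 65 other probe sets lie beyond it. The red points crowd at a level above 14, just under 0, and spread more widely at the dimmer probe sets.

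Below a mean of 14 the ribosomal protein probe sets followed another array. Among these 22 probe sets KO1 was the lowest of the 6 arrays for 14 (63.6%), with a median deviation of -0.45 from the probe set's own mean. KO2 stood at 0.17 there and was the highest array for 7. At a mean of 14 or more KO1 was the lowest array for 0 of 62. Over all 27022 tested probe sets KO1 was the lowest array for 21.8% and the highest for 6578, in both the most of the 6 arrays. Within replicate number 1 the median difference of the members was -0.65 at a mean of 5 to 10 and -0.35 at 10 to 14. Probe sets that name no ribosomal protein gene had -0.003 and 0.001 there. The mean of the feeder fibroblast markers was low on both KO1 (8.27) and WT1 (8.53). On WT1 the 22 probe sets had a median deviation of 0.06. The part of feeder RNA in this result was not tested.

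**Figure D3:**
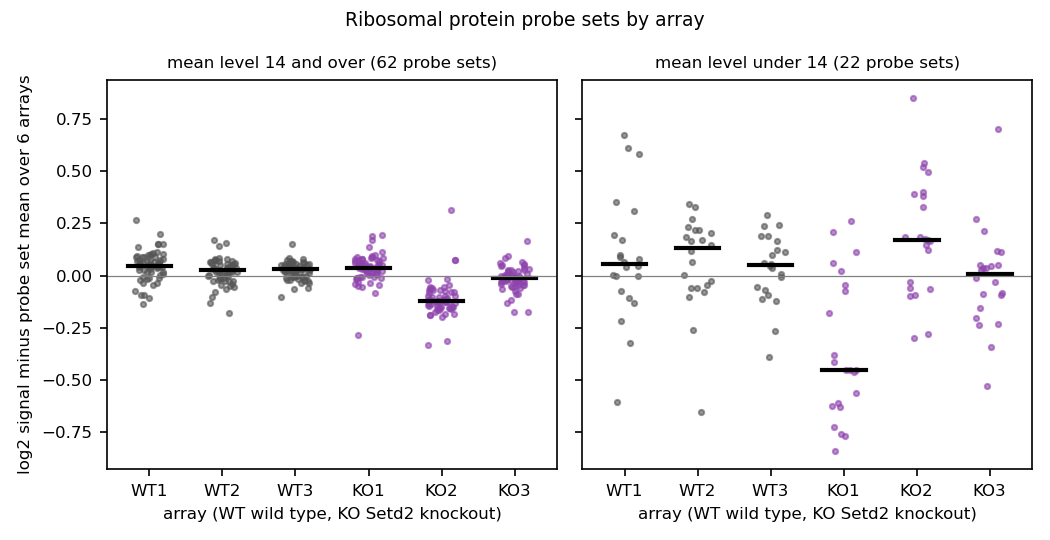
Log2 MAS5 signal of each ribosomal protein probe set minus its mean over the 6 arrays (y axis), by array (x axis, grey for wild type and purple for knockout); each point is 1 probe set and black bars are medians. On the left, 62 probe sets with a mean of 14 or more are lowest on KO2, and on the right, 22 dimmer ones are lowest on KO1 and more widely spread.

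The promoters of the members share sequence features beyond their symbols. RefSeq promoters (GRCm38.p6, 250 bases before to 50 after each annotated start) were found for 35 of the 40 genes, in 40 entries, and not for Rpl7, Rpl8, Rps14, Rps20 and Rps29. Shares are given for the members against 21262 entries of protein-coding genes, and motifs were searched on both strands. The motif CGGAAG, the core that Ets factors such as Gabpa bind, was present in 65.0% against 21.1%, and in 53.3% of the entries of mitochondrial ribosomal proteins. CTTCCG is its reverse complement and gives the same share. The longer CCGGAAG, which contains it, gave 42.5% against 11.6%, and 34.7% in the mitochondrial entries. The motif CTTTCC gave 47.5% against 25.9%, and 33.3% in the mitochondrial entries. It was counted at any place in the 300 bases and on both strands, so a match need not be the pyrimidine tract of the mRNA. Overlapping motifs gave 85.0% against 55.0% for CTTTC and 4 of 40 entries against 3.0% for CTCTTTCC. CTTTTCC gave 17.5% against 7.9% and CTTCCT 55.0% against 34.4%. An unbroken run of C or T within 25 bases of the start was searched on the strand of the gene. At a length of at least 8 it was found in 47.5% against 19.3%, and in 22.7% of the mitochondrial entries. At least 6 gave 70.0% against 43.1%, and at least 10 gave 35.0% against 9.1%. The other motifs searched were TATAAA (7.5% against 12.6%), CCAAT (32.5% against 38.2%), GGGCGG (57.5% against 46.2%), CACGTG (12.5% against 7.8%), AAGATGGC (5.0% against 3.1%) and TGACGTCA (5.0% against 2.2%). These motifs and run lengths were all that were counted, and the emphasis on CGGAAG and CTTTCC was chosen after their shares were seen.

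The promoters of 5 genes are shown, chosen after the values were seen: Rpl37, Rpl14 and Rps15 for their differences, Rpl11 for its narrow groups and Rpsa as a gene close to 0. Each sequence runs from 120 bases before to 20 bases after the annotated start, 5′ to 3′ on the strand of the gene, with CGGAAG and CTTTCC or their reverse complements in capitals. A match is a match of letters only. The windows are those of Rpl11 (chr4:136053374-136053513, minus strand), Rpl14 (chr9:120571397-120571536, plus strand), Rpl37 (chr15:5116493-5116632, plus strand), Rps15 (chr10:80292311-80292450, plus strand) and Rpsa (chr9:120127646-120127785, plus strand).
Rpl11: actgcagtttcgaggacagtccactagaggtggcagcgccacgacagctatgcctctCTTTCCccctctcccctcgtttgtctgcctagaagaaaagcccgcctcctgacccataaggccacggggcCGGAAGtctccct
Rpl14: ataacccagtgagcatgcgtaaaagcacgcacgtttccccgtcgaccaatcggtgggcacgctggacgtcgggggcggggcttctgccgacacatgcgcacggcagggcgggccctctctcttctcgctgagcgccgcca
Rpl37: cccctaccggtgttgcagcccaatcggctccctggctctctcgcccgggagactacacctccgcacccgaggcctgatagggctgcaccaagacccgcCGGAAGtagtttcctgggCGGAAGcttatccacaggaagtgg
Rps15: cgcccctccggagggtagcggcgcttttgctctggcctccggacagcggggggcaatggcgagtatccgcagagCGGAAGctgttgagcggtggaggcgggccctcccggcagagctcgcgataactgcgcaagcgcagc
Rpsa: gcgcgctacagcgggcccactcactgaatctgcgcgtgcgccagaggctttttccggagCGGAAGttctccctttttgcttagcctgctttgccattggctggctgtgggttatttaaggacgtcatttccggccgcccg
In these windows Rpl11 carries 1 match to each motif, Rpl37 carries 2 to CGGAAG, Rps15 and Rpsa carry 1 to CGGAAG, and Rpl14 carries none. The CTTTCC of Rpl11 lies before the annotated start.

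Among the large subunit genes, 19 of 20 lay below 0, with a median of -0.07 and 0 past the threshold of limma. Rpl14 had the lowest difference. Its probe set read 10.63, 10.82 and 10.67 in wild type and 10.57, 10.25 and 10.34 in knockout cells. All 3 knockout arrays lay below the wild type arrays, KO1 only narrowly. The difference was -0.32 ± 0.12 (SE; 95% interval -0.61 to -0.03; limma adjusted p = 0.365). It fell without both arrays numbered 1, at -0.45 (limma adjusted p = 0.0205), where 4.11% of all probe sets were lower. The 5 probe sets that name Rpl14 together with a pseudogene, which the rule leaves out, differed by between -0.03 and 0.05.

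Rpl11, a component of the central protuberance that binds Mdm2 when free, read 14.54, 14.48 and 14.51 in wild type and 14.39, 14.31 and 14.41 in knockout cells. The arrays did not overlap. The difference was -0.14 ± 0.05 (SE; limma adjusted p = 0.334, or 0.113 when blocked), with an interval of -0.27 to -0.02. A dimmer probe set shared with another gene differed by -0.34 and did not pass. Mdm2 itself, the ubiquitin ligase of p53, differed by -0.17 (limma interval -0.41 to 0.07) and did not pass with or without the block.

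Rpl37 had the highest difference. Its probe set (1438291_x_at) read 12.12, 12.06 and 11.73 in wild type and 12.33, 12.52 and 11.97 in knockout cells. WT1 and WT2 lay above KO3, so the groups overlapped, but within each replicate number the knockout array was higher, by 0.21, 0.46 and 0.24. The difference was 0.30 ± 0.16 (SE), a 1.23-fold higher signal, and its limma adjusted p was 0.527 without and 0.0288 with the replicate block. It is the one member gene that rose in the blocked fit. The 3 probe sets that name Rpl37 together with Rpl37rt, outside the rule, lay on the other side of 0, at -0.09, -0.06 and -0.05, and did not pass. Under the 14 alternatives that kept the probe set the difference lay between 0.18 and 0.46, lowest without KO2 (0.18) or WT3 (0.18) and highest without KO3 (0.46).

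Rpl12, at the base of the stalk that binds elongation factors, read 12.09, 12.31 and 12.20 in wild type and 11.47, 12.47 and 12.01 in knockout cells. KO1 lay lowest and KO2 highest of all 6 arrays. The difference of -0.22 had a limma interval of -0.72 to 0.28. It was 0.04 without KO1, -0.47 without KO2 and -0.02 without both arrays numbered 1. Brighter probe sets that Rpl12 shares with other genes differed by -0.07 and -0.06. Of the stalk proteins themselves, Rplp0 read 14.64, 14.60 and 14.62 against 14.55, 14.47 and 14.66, a difference of -0.06 (-0.20 to 0.08). Rplp2 read 14.91, 14.97 and 15.01 against 14.98, 14.86 and 14.94, a difference of -0.04 (-0.16 to 0.08). Both stalk genes overlapped between genotypes.

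Rpl13a, also known for a role outside the ribosome in silencing inflammatory mRNAs, had 4 tested probe sets with differences between -0.11 and -0.00. Rpl35 had 6 tested probe sets with differences between -0.16 and -0.02. Rpl41, which encodes one of the shortest known proteins, had 4 tested probe sets with differences between -0.13 and 0.03. Rpl27a differed by -0.04 (limma interval -0.33 to 0.25). A brighter probe set that it shares with other genes differed by -0.09 (-0.22 to 0.04), with all knockout arrays below the wild type arrays. None of these probe sets passed.

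Among the 19 tested small subunit genes 15 lay below 0, with a median of -0.04 and 0 past the threshold of limma. Rps25, known from internal ribosome entry, read 11.60, 11.83 and 11.84 in wild type and 10.97, 11.78 and 11.57 in knockout cells. KO1 stood apart and the other arrays overlapped. The difference was -0.32 ± 0.20 (SE; limma adjusted p = 0.606, or 0.0870 when blocked). Without KO1 it was -0.08, and without KO2 -0.49. The probe set that Rps25 shares with other genes differed by -0.05. Rps2 (1431766_x_at), a core protein near the mRNA entry channel, read 14.79, 14.75 and 14.66 in wild type and 14.31, 14.28 and 14.76 in knockout cells. KO1 and KO2 were low and KO3 lay within the wild type range. The difference was -0.29 ± 0.12 (SE; limma adjusted p = 0.407), and leaving out single arrays moved it between -0.44 (without KO3) and -0.20 (without KO2), with no call. The shared probe sets of Rps2 differed by -0.10 and -0.10.

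Rps15, which sits in the head of the small subunit, had probe sets that disagreed. Its brightest probe set (1416088_a_at) read 14.43, 14.33 and 14.37 in wild type and 14.58, 14.31 and 14.31 in knockout cells, a difference of 0.03 with a limma interval of -0.16 to 0.22. Its other probe set (1416089_at) read 14.44, 14.31 and 14.32 in wild type and 14.12, 13.84 and 13.997 in knockout cells, with all 3 knockout arrays lower. That probe set differed by -0.37 ± 0.08 (SE), a 1.29-fold lower signal, with a limma adjusted p of 0.107. It fell in the fit with the replicate block (limma adjusted p = 0.00282). It also fell in limma without both arrays numbered 1 (adjusted p = 0.00558) and without KO1 (0.0306), where 1.03% of all probe sets were lower. Its difference lay between -0.44 and -0.30 under the 15 alternatives. Which transcripts each of the probe sets reads was not analysed here.

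**Figure D4:**
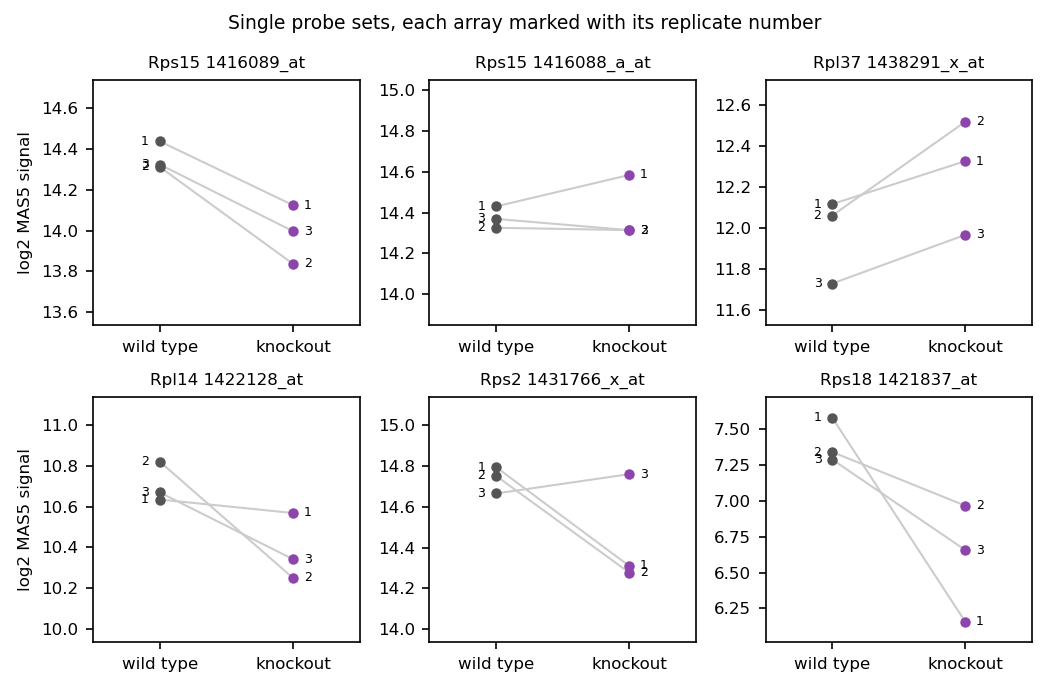
Log2 MAS5 signal (y axis, own range in each panel) in wild type (grey) and knockout arrays (purple) for 6 ribosomal protein probe sets; grey lines join arrays of the same replicate number, printed beside each point. The Rps15 probe set 1416089_at is lower in each numbered pair and 1416088_a_at is not, and Rpl37 is higher in each pair.

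Among 20 listed genes of either subunit known from Diamond-Blackfan anaemia 11 were tested. None passed in limma with or without the block, and 2 were lower at an unadjusted p under 0.05, Rpl11 and Rps28 (-0.13), which held for 7.29% of all genes. Their median was -0.09, against -0.06 over all members. In 3 of the 11 (Rpl11, Rps28 and Rpl27) all knockout arrays lay below the wild type arrays, 27.3% against 17.9% of all members and 9.97% of all genes. The dimmer tested probe sets of Rpl27 overlapped, at 0.02 and -0.003, and so did the Rps28 probe set 1454778_x_at, at -0.07. Rps19, the gene most often mutated in it, read 14.51, 14.42 and 14.45 in wild type and 14.50, 14.34 and 14.47 in knockout cells, a difference of -0.02 with a limma interval of -0.16 to 0.12. A dim probe set shared with a pseudogene differed by 0.75 and did not pass. Rps24 read 14.83, 14.77 and 14.80 against 14.83, 14.66 and 14.78, a difference of -0.04 (-0.18 to 0.09). The difference furthest from 0 among those 11 was that of Rps27, at 0.17. Rps27 read 9.54, 8.21 and 8.60 against 8.79, 9.72 and 8.33, and its interval of -0.78 to 1.11 was the widest among the tested members. Its sign turned without KO2 (-0.22) or WT2 (-0.12), and a brighter probe set shared with Rps27rt differed by 0.04.

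Rps6, the substrate of the kinases below mTOR, read 9.59, 9.99 and 9.80 in wild type and 9.63, 9.97 and 9.85 in knockout cells, a difference of 0.03 (limma interval -0.33 to 0.38). The 9 probe sets that name Rps6 together with its pseudogene Rps6-ps4, outside the rule, had differences from -0.15 to 0.82, and 0 passed in limma without the block. With the block 4 of the 9 rose in limma: 1435816_at by 0.82 (adjusted p = 0.00372), 1435817_x_at by 0.47 (0.00464), 1437246_x_at by 0.39 (0.0163) and 1455981_at by 0.59 (0.0482). The 4 with means above 14 differed by -0.15, -0.05, -0.05 and -0.04, and in the first of these all knockout arrays lay below the wild type arrays. These 4 that rose are all that did among the 101 tested probe sets shared with other genes, where 2 fell with the block, naming Rpl31 and Rpl17. The one of Rpl17 (1453752_at) differed by -0.64 (limma adjusted p = 0.0588, or 0.000942 when blocked). The one of Rpl31 (1420381_a_at) differed by -0.42 (limma adjusted p = 0.228, or 0.00787 when blocked). In both, all knockout arrays lay below the wild type arrays. Brighter tested probe sets naming these genes differed by between -0.10 and -0.001. Over all probe sets 3.49% were higher and 4.39% lower with the block. The 4 that rose all name the same gene and pseudogene, and in each the arrays overlapped between genotypes. Rps7 differed by 0.02 (-0.12 to 0.16). Rpsa, the former laminin receptor precursor, read 14.85, 14.99 and 14.96 against 15.01, 14.85 and 14.86, a difference of -0.03 (-0.17 to 0.12). Rps4x, the one X-linked member, read 14.82, 14.87 and 14.85 against 14.80, 14.65 and 14.90, a difference of -0.06 (-0.22 to 0.09). The 3 brightest member probe sets, of Rps29, Rpl13a and Rps20, differed by -0.09, -0.07 and -0.02. The member probe sets named here overlapped between genotypes.

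Within a gene the probe sets mostly pointed the same way but not to the same size. Of 17 genes with more than 1 tested probe set, 10 had all of them below 0, 1 had all above and 6 had both signs. Of all 84 tested member probe sets 71 (84.5%) lay below 0, so a shared sign need not mean agreement within a gene. Rps24 was the 1 gene with both signs and a spread of at least 0.5: 1436500_at, near the filter value of 5.27, read 5.26, 5.84 and 5.91 in wild type and 5.26, 6.37 and 6.57 in knockout cells. Its difference was 0.39 with a limma interval of -0.53 to 1.32, and it lay between 0.14 and 0.80 over the alternatives. The lowest difference of any tested member probe set was that of Rps18 1421837_at, chosen after its values were seen. It read 7.58, 7.34 and 7.29 in wild type and 6.16, 6.97 and 6.66 in knockout cells. The groups did not overlap, and the difference was -0.81 ± 0.25 (SE; limma adjusted p = 0.247, or 0.0663 when blocked). The 3 bright probe sets of Rps18, with means above 14, differed by -0.12, -0.02 and -0.02.

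Other parts of the translation apparatus, with snoRNA host genes and regulators around mTOR and Myc, were followed through 8 lists with 199 tested genes. In limma 0 of the 199 passed, with 17 at an unadjusted p under 0.05, and 16 passed with the replicate block (9.87% of all genes did). Of these 16, 5 lie on chromosome 8. The 7 tested genes of the elongation factor list, which also holds Tpt1, had a median of -0.07, with 6 below 0, and 0 passed with the block. Eef1a1, which brings aminoacyl-tRNA to the ribosome, differed by -0.09, and Tpt1, whose mRNA carries the same kind of pyrimidine tract, by -0.09. The 30 tested initiation factors had a median of -0.00, and with the block 1 fell, Eif5b, which joins the subunits, at -0.45 (limma adjusted p = 0.337, or 0.0384 with the block). Fau, which encodes a ribosomal protein fused to a ubiquitin-like domain, differed by 0.02.

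The 49 tested ribosome assembly factors had a median of 0.01. With the block 1 rose and 2 fell in limma: Rrp9, a protein of the U3 particle, at 0.46 (adjusted p = 0.00565), Imp4, a partner of that particle, at -0.56 (0.00197), and Nob1, the nuclease that finishes the small subunit rRNA, at -0.59 (0.00327). Nob1 lies on chromosome 8. The 11 tested genes of RNA polymerase I transcription had a median of -0.02, and Taf1c, also on chromosome 8, fell with the block, at -0.45 (limma adjusted p = 0.0287). Of 76 mitochondrial ribosomal protein genes, with a median of -0.00, 4 rose and 4 fell with the block in limma. The largest of these were Mrpl3 at 0.50, Mrpl48 at -0.42, Mrpl34 at -0.40 and Mrpl22 at 0.37, where Mrpl34 lies on chromosome 8.

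The 9 snoRNA host genes, noncoding or weakly coding genes whose introns hold the guides of rRNA modification, had a median of -0.04. Snhg3 fell with the block, at -0.66 (limma adjusted p = 0.161 without and 0.00163 with it). The 16 tested regulators around mTOR and Myc had a median of 0.07. With the block the translation repressor gene Eif4ebp2 rose by 0.36 (limma adjusted p = 0.00860) and Eif4ebp1 fell by 0.22 (limma adjusted p = 0.0360), and Eif4ebp1 lies on chromosome 8.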

How the data were processed

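Total RNA (6 µg) from each of 6 cultures was hybridised to 1 array. The authors deposited log2 signals, made with MAS5 per the submitters' processing notes, with no version given in the sources used here. The linear trimmed mean was between 497.0 and 497.3 on every array, so no further scaling was applied. Detection calls were not used here. Symbols came from the platform annotation and a RefSeq gene table (GRCm38.p6), with 34945 probe sets naming 1 gene, 932 several and 9160 none. Probe sets with a mean below the 40th percentile (5.27) were left out, leaving 27022. Differences were fitted with limma 3.58.1 in R 4.3.3 (lmFit, eBayes with intensity trend, two-sided, Benjamini-Hochberg over all tested probe sets, threshold 0.05), and the fit was tested on simulated data. Same-numbered arrays deviated together (r = 0.50, 0.23 and 0.24 across probe sets), above the bound of 0.1 set for pairing. However, WT2 and KO3 gave 0.23 and WT3 and KO2 gave 0.17, also above it. The values thus set apart number 1 only, and the labels do not say that the numbers pair arrays. A blocked fit on these numbers is given beside the other where it changes a call, and its calls rest on this pairing. P-values measure the spread between these cultures, whose small number limits the precision. Members and lists were chosen with earlier results of these data known. Named genes are those past the threshold in either fit, the 5 largest differences in each direction, members on chromosome 8, X or Y, the 3 brightest and dimmest, genes with probe sets of opposite sign and at least 0.5 apart (a single opposed probe set is described from 0.3 apart, a bound added after the values were seen), the stalk genes and Rpsa, Rpl11, Rps19 and Rps24, and up to 4 genes per companion list that passed, or the 2 brightest. Mdm2, Rpl35, Rpl41 and Rps18 are given outside this rule.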

Additional observations from a re-analysis of the deposited data

How the results depend on the processing

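The count of ribosomal protein probe sets past the threshold of limma was 0 and became 2 with the replicate block and 2 without both arrays numbered 1. By gene it was 0 and became 1 under both, Rpl37 (higher) with the block and Rpl14 (lower) without those arrays. Leaving out single arrays gave 0 to 1 probe sets and 0 genes. Quantile normalization, median centring, no or a stricter filter, no intensity trend and leaving out chromosomes 8 and Y kept both counts at 0. The median difference of -0.06 ranged from -0.08 to -0.02 with single arrays left out and was 0.00 after quantile normalization. Without the probe sets whose names end in _a_at, _s_at or _x_at it was -0.13 over 19 genes. The 21 tested member probe sets left there had a median level of 10.55, against 14.69 over the 39 genes. The genes and their level thus changed along with the type of probe set. Over all probe sets, 175 passed, and 57 without the intensity trend, 2129 with the replicate block, 2025 without both arrays numbered 1 and 33 to 437 with single arrays left out. Setd2 missed the threshold without the intensity trend (-0.82, limma adjusted p = 0.0916), and its difference ran from -0.87 to -0.76 with single arrays left out, where 5 of the 6 fits lost the call. Of the 22 named member probe sets, 13 took both signs over the alternatives.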
